A study of Mus musculus with 18 samples.

Results

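The 88 genes described here start between 140 and 150 Mb of mouse chromosome 4 (build GRCm39) and were compared between *Ezr*-KOm and WT lung macrophages. They are the rows of the deposited table that start in this stretch and reach at least 10 counts in at least 3 of the 18 libraries, out of 21254 rows in all, with 6 rows left out by name. The stretch was chosen from measured values: in earlier results of these data, genes called between the genotypes in every sorted population gathered there. The differences between *Ezr*-KOm and WT in these genes are therefore given as a description, with no test. Of the 88 genes, 73 are protein coding, 7 are long non-coding RNAs, and 8 are pseudogenes.

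Monocytes and macrophages were sorted from perfused lungs 24 h after mice breathed a nebulized dose of *Pseudomonas aeruginosa* LPS, 12.5 mg in 5 ml PBS over 15 min, and their RNA was sequenced in bulk. All libraries come from LPS-exposed mice, so no comparison with untreated lung is given. The sorted populations were monocyte-derived macrophages (moMs, CD45+CD11b+MHC-II-Ly6C+), transitional interstitial macrophages (tnsIMs, called trIMs in the labels, MHC-II+Ly6C+) and mature interstitial macrophages (matIMs, MHC-II+Ly6C-). Each population had 3 WT and 3 *Ezr*-KOm libraries. In *Ezr*-KOm mice the floxed gene for ezrin, the protein that ties the plasma membrane to cortical actin, is excised by Cre driven from *Cx3cr1*. WT mice carry the same Cre and intact *Ezr*. Both lines were on a C57BL/6 background and 3 to 5 months old per the study's methods, which describe both sexes, and *Cx3cr1* is also active in some dendritic cells, eosinophils and NK cells. The labels do not say which libraries came from one animal.

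Library totals ran from 16512783 to 48460995 counts, and the 88 genes took 0.327% to 0.403% of a library. Levels are given as CPM, a gene's counts divided by the library total after TMM scaling in edgeR. Each log2 change comes with its standard error from 1 model of all 18 libraries, which has no term for the replicate number. *Ezr* itself was lower in every *Ezr*-KOm library than in any WT library of its population, at 531 ± 53.6 against 231 ± 63.7 CPM in moMs, 586 ± 83.8 against 191 ± 57.4 in tnsIMs and 661 ± 70.0 against 135 ± 37.4 in matIMs (SD, n = 3). *Ezr*-KOm libraries thus kept part of the transcript. The summed level of 10 macrophage markers overlapped between genotypes in each population. Of 9 marker lists for MHC class II and for other cells, only the fibroblast list stood apart, in moMs, at 21.5 to 35.5 CPM in WT against 40.8 to 51.2 CPM in *Ezr*-KOm. None of its 5 genes was at 0 throughout a group, and 3 of them were called higher in *Ezr*-KOm moMs, with 1 called higher in tnsIMs and 1 in matIMs. Its part in the moM values below was not tested. In bulk libraries, fewer cells of a type and less RNA per cell cannot be told apart.

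This stretch of the chromosome holds several gene families that arose by local duplication. Peptidylarginine deiminases turn arginine into citrulline, and PADI4 acts in the nucleus on histones, a step in the release of chromatin traps by neutrophils. The distal part carries a large cluster of zinc finger genes of the kind whose proteins bind and silence retroelements, beside *Fv1*, which restricts infection by murine leukaemia viruses. Between them lies podoplanin (*Pdpn*), a mucin-like membrane protein whose cytoplasmic tail binds ezrin and moesin.

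The zinc finger genes resemble each other closely, in the DNA before their first base as well as in their transcripts. That stretch is printed for 4 of them because they lie in 1 cluster and differ in the values given below: *Zfp984* was called lower in *Ezr*-KOm in every population, *Zfp993* lower in tnsIMs, *Zfp985* higher in every population, and *Zfp268* in none. Capitals mark bases that differ from *Zfp984* in the alignment, each stretch is read 5′ to 3′ on the strand of its gene from the GRCm39 genome, and none reaches the first base of its gene.
Zfp984 (chr4:147894335-147894445, minus strand): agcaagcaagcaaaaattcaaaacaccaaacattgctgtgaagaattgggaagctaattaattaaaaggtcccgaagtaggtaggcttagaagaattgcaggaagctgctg
Zfp268 (chr4:145311584-145311694, plus strand): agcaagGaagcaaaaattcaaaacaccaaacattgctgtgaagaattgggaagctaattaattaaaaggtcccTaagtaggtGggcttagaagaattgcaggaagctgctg
Zfp993 (chr4:146695265-146695375, plus strand): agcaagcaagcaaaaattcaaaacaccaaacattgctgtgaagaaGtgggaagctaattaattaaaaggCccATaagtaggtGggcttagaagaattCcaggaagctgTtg
Zfp985 (chr4:147637552-147637662, plus strand): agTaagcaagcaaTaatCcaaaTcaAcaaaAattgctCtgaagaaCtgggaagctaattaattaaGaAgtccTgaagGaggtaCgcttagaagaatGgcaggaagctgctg
Against *Zfp984*, 108 of 111 bases were the same for *Zfp268*, 104 for *Zfp993* and 97 for *Zfp985*. The stretch before the deposited start of *Zfp991*, a further gene of the cluster, was identical to that of *Zfp993*. In Gencode M39 *Zfp991* starts earlier, and the stretch lies inside the gene. *Zfp268* also had the transcript with the highest identity to that of *Zfp984* among those found, at 95.1% over 81.0% of the *Zfp984* transcript. Another gene, ENSMUSG00000121438, covered more of it, 85.7%, at 93.0% identity. The likeness of these stretches is a description and says nothing of how the genes are regulated.

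Calls follow the study's rule, a p under 0.05, unadjusted here, with an absolute log2 change above 0.75. By it 8 genes were called in all 3 populations: *Padi4*, *Epha2*, *Pdpn*, *Znf41-ps*, *Zfp991*, *Zfp984* and *Fbxo44* lower, and *Zfp985* higher in *Ezr*-KOm. Of the 88 genes, 86 had enough counts to be tested, and *Spata21* and *Fbxo2* did not. In all 3 populations together, 7 members were called lower where 0.183% of the 15811 genes tested were, and 1 was called higher where 0.202% were. In moMs 11 members were called lower and 3 higher, beside 0.961% and 1.55% of all genes. In tnsIMs the counts were 12 lower and 3 higher, beside 0.759% and 1.08%, and in matIMs 9 lower and 3 higher, beside 0.987% and 1.41%. The same contrasts picked the stretch, so nothing is read from these counts. In all, 19 members were called in some population, beside 5.4% of all genes, 6 of them in 2 populations and 5 in 1, and none was called in opposite directions. The median log2 changes over the 86, in the same order of populations, were 0.032, -0.054 and -0.027, against 0.0022, 0.0020 and -0.0014 over all genes tested.

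**Figure D1:**
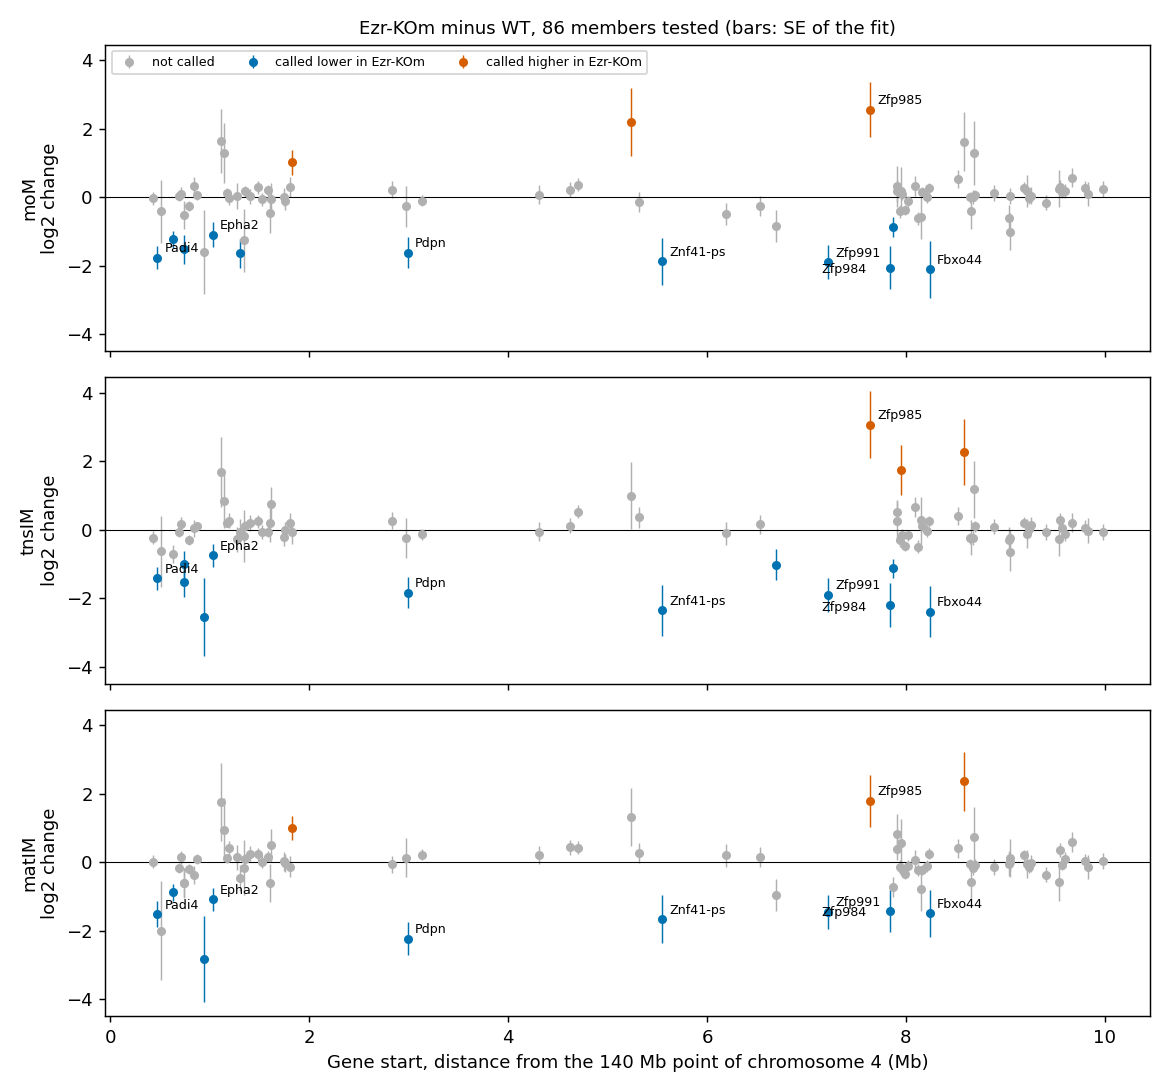
Log2 change between *Ezr*-KOm and WT (y axis, points, with the standard error of the fit as bars) against the start of each of the 86 tested genes, as distance in Mb from the 140 Mb point (x axis), in moMs, tnsIMs and matIMs from top to bottom. Blue points were called lower and orange points higher in *Ezr*-KOm, the 8 genes called in all 3 populations are named, and the 22 genes that start after *Angptl7*, near the right edge, are all grey.

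Along the stretch the number of called genes varied. Of the 31 tested members that start between 140 and 142 Mb 8 were called in some population, and of the 13 between 146 and 148 Mb 6 were. From 142 to 144 Mb it was 1 of 4, from 144 to 146 Mb 2 of 6, and from 148 to 150 Mb 2 of 32. None of the 22 tested members that start after *Angptl7* was called. Over all genes tested, 5.4% were called in some population, and nothing is read from the counts by position. These parts of 2 Mb were drawn after the values were seen.

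The peptidylarginine deiminases lie near the start of the stretch, and 2 of the 3 tested were called lower in some population. Over all genes tested, 5.4% were called in some population, in either direction. *Padi4* (ENSMUSG00000025330, chr4:140473176-140501547, minus strand) stood at 55.3, 44.0 and 68.7 CPM in WT moMs and at 12.4, 23.9 and 13.2 CPM in *Ezr*-KOm moMs. In tnsIMs it was 16.9, 9.39 and 13.9 CPM against 2.53, 7.48 and 4.79, and in matIMs 5.94, 2.99 and 4.47 against 1.36, 1.58 and 1.72. Every *Ezr*-KOm library was below every WT library of its population. The log2 changes were -1.76 ± 0.34, -1.42 ± 0.34 and -1.52 ± 0.38 (SE) in that order. *Padi2* (ENSMUSG00000028927, chr4:140633655-140679897, plus strand), its neighbour from the same family, was at 103, 112 and 126 CPM in WT moMs against 38.8, 57.2 and 49.4 in *Ezr*-KOm moMs. In matIMs it was 76.8, 67.4 and 75.0 against 26.2, 47.6 and 45.3 CPM, and neither population overlapped between genotypes. The log2 changes there were -1.23 ± 0.25 and -0.88 ± 0.25. In tnsIMs the groups overlapped, at 34.7, 26.1 and 31.5 against 11, 26.3 and 18.9 CPM, and the log2 change of -0.71 ± 0.25 missed the limit of 0.75. *Padi3*, the other member of the family detected, averaged at most 0.481 CPM in any group and was not called.

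Genes of the cell surface and of cell adhesion made up the next group. Of 12 tested members on a list for adhesion, cytoskeleton and matrix, 4 were called lower and 1 higher in moMs. In tnsIMs 4 were called lower, and in matIMs 2 lower and 1 higher. Median log2 changes were -0.16, -0.10 and -0.18. Over all genes tested, 0.961% were called lower and 1.55% higher in moMs, 0.759% and 1.08% in tnsIMs, and 0.987% and 1.41% in matIMs. The list was drawn up with results known, in a stretch picked for calls, so nothing is read from its counts. *Pdpn* (ENSMUSG00000028583, chr4:142994001-143026134, minus strand) was at 39.6, 19.6 and 18.9 CPM in WT moMs and at 11, 9.60 and 4.67 in *Ezr*-KOm moMs. In tnsIMs it was 36.5, 15.2 and 21.1 against 8.81, 6.76 and 4.83 CPM, and in matIMs 20.1, 7.26 and 11.7 against 4.30, 2.65 and 1.30. The groups did not overlap in any population, and the first WT library was the highest in each. The log2 changes were -1.62 ± 0.45, -1.84 ± 0.45 and -2.23 ± 0.47 in the order moMs, tnsIMs, matIMs. *Epha2*, a receptor tyrosine kinase for ephrins (ENSMUSG00000006445, chr4:141028551-141056695, plus strand), was 6.28 ± 2.31 CPM in WT against 2.92 ± 1.18 in *Ezr*-KOm moMs and 23.6 ± 5.13 against 11.1 ± 3.71 in matIMs (SD, n = 3). Neither of these overlapped, with log2 changes of -1.09 ± 0.37 and -1.08 ± 0.34. Its tnsIM libraries overlapped, at 14.8, 10.6 and 11 against 4.82, 10.7 and 5.93 CPM, and its log2 change there sat on the limit at -0.75 ± 0.35. That call held in 9 of 26 alternative settings, and without the second *Ezr*-KOm tnsIM library the log2 change was -1.18.

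Other members of the adhesion list differed in some populations and not in others. *Fblim1*, which encodes migfilin, an adaptor at cell-matrix contacts, was 2.12 ± 0.602 CPM in WT and 0.666 ± 0.364 in *Ezr*-KOm moMs, a log2 change of -1.64 ± 0.43. In tnsIMs its levels of 5.14 ± 0.377 and 4.91 ± 1.97 CPM differed by less than the spread between replicates. *Crocc*, which encodes rootletin of the ciliary rootlet, had log2 changes of -1.52 ± 0.42, -1.53 ± 0.42 and -0.59 ± 0.41, with overlap in matIMs alone, and without the second *Ezr*-KOm moM library the moM value was -2.14. *Mfap2*, a protein of matrix microfibrils, was called only in tnsIMs, at 12.1 ± 1.08 CPM in WT against 6.03 ± 2.61 in *Ezr*-KOm, a log2 change of -1.0 ± 0.38 that was -1.42 without the second *Ezr*-KOm library. *Kazn*, which encodes a protein of cell junctions, was called higher. It was at 0.911, 0.580 and 1.10 CPM in WT moMs against 1.65, 1.81 and 1.81 in *Ezr*-KOm, with a like difference in matIMs (log2 changes 1.02 ± 0.36 and 1.01 ± 0.35) and overlapping values in tnsIMs (-0.07 ± 0.33).

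A gene called in 1 population and not in another is not shown to differ between them. The stretch was picked for calls shared by the populations, so its genotype changes give no independent test of such a difference, and none is given.

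The zinc finger cluster held members called lower and members called higher. Of 11 tested members with zinc finger names, 2 were called lower and 2 higher in moMs. In tnsIMs 3 were called lower and 1 higher, and in matIMs 2 lower and 1 higher. Median log2 changes were 0.12, 0.21 and 0.12. This list also holds *Zbtb17*, *Prdm2* and *Casz1*, which lie outside the cluster and were not called, and leaves out *Znf41-ps*. Its medians are therefore not those of the cluster. The shares over all genes tested were 0.961% lower and 1.55% higher in moMs, 0.759% and 1.08% in tnsIMs, and 0.987% and 1.41% in matIMs. Nothing is read from these counts either. *Zfp984* (ENSMUSG00000078495, chr4:147838431-147894245, minus strand) was at 20.3, 9.12 and 16.4 CPM in WT moMs and at 0.696, 8.29 and 1.85 in *Ezr*-KOm moMs. In tnsIMs it was 9.51, 4.19 and 14.2 against 1.70, 2.51 and 1.78 CPM, and in matIMs 11.4, 8.76 and 13.3 against 2.55, 7.40 and 2.47. The groups did not overlap, but the second *Ezr*-KOm library came close to the second WT library in moMs and matIMs. The log2 changes were -2.06 ± 0.63, -2.21 ± 0.64 and -1.43 ± 0.61 in the same order, and without the second *Ezr*-KOm library it was -3.57 in moMs and -2.15 in matIMs. *Gm20707*, a non-coding RNA gene on the same strand that *Zfp984* overlaps (chr4:147866776-147894297), was lower in each *Ezr*-KOm library too, with log2 changes of -0.87 ± 0.29, -1.13 ± 0.29 and -0.72 ± 0.28. Reads in the shared part cannot be assigned to 1 of the 2 genes.

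*Zfp991* (ENSMUSG00000067916, chr4:147216495-147265036, plus strand) had the same order of WT libraries as *Zfp984* in each population. It was at 6.32, 2.78 and 5.08 CPM in WT moMs against 0.391, 2.35 and 1.01, at 3.05, 1.84 and 4.82 in WT tnsIMs against 0.789, 0.998 and 0.805, and at 3.50, 1.92 and 3.58 in WT matIMs against 1.25, 1.07 and 0.964. The groups did not overlap in any population, and the log2 changes were -1.90 ± 0.49, -1.90 ± 0.50 and -1.45 ± 0.49. *Znf41-ps*, a pseudogene of the cluster (ENSMUSG00000084350, chr4:145551807-145556512, plus strand), had log2 changes of -1.87 ± 0.69, -2.36 ± 0.73 and -1.67 ± 0.70, and overlapped between genotypes in moMs and matIMs, where the second *Ezr*-KOm library was at 1.47 and 1.17 CPM against 1.37 and 1.03 CPM in the second WT library. Without that *Ezr*-KOm library its log2 change was -2.97 in moMs and -2.91 in matIMs. *Zfp993* had log2 changes of -0.85 ± 0.47, -1.02 ± 0.46 and -0.95 ± 0.47, and was called in tnsIMs, where its groups overlapped. The shorter transcripts of *Zfp993* and *Znf41-ps* are nearly contained in that of *Zfp991*: *Zfp993* was 99.6% identical to *Zfp991* over its whole length, and *Znf41-ps* was 99.5% identical to *Zfp991* over 99.9% of its length. Counts on them are uncertain, since reads that fit several copies cannot be assigned to 1 of them. *Zfp992*, 98.8% identical to *Zfp991* over 82.3% of its transcript, was not called, at 5.63 ± 0.538 against 4.74 ± 0.377 CPM in moMs, 3.80 ± 0.843 against 4.28 ± 1.94 in tnsIMs and 3.87 ± 0.380 against 4.32 ± 0.491 in matIMs (SD, n = 3).

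*Zfp985* (ENSMUSG00000065999, chr4:147637734-147669655, plus strand) lies between *Zfp991* and *Zfp984* and was the 1 member called higher in all 3 populations. Its level was low throughout. It was at 0, 0.290 and 0.118 CPM in WT moMs against 0.652, 0.733 and 1.23, at 0, 0.0634 and 0.0784 in WT tnsIMs against 0.374, 0.359 and 0.551, and at 0, 0.299 and 0.335 in WT matIMs against 0.681, 0.757 and 0.838. No WT library reached an *Ezr*-KOm library of its population. The log2 change was 2.56 ± 0.80 in moMs and 1.79 ± 0.76 in matIMs, and without the second WT moM library the moM value was 3.61. The 3 WT tnsIM libraries held 3 counts together and the *Ezr*-KOm ones 40. *Zfp985* met the count minimum in 8 *Ezr*-KOm libraries and in no WT library, so it is a member only through the genotype in which it is high. *Zfp990*, a further member of the cluster, had log2 changes of 2.20 ± 0.98, 0.99 ± 0.97 and 1.32 ± 0.85 and was called in moMs. *Fv1* was called higher in tnsIMs, at 0.372 ± 0.157 CPM in WT against 1.29 ± 0.656, and had log2 changes of 0.19 ± 0.71 in moMs and 0.57 ± 0.71 in matIMs. *Zfp268* was at 4.56 ± 0.711 against 4.11 ± 0.477 CPM in moMs, 2.05 ± 0.576 against 2.7 ± 0.994 in tnsIMs and 3.50 ± 0.465 against 4.21 ± 0.494 in matIMs.

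**Figure D2:**
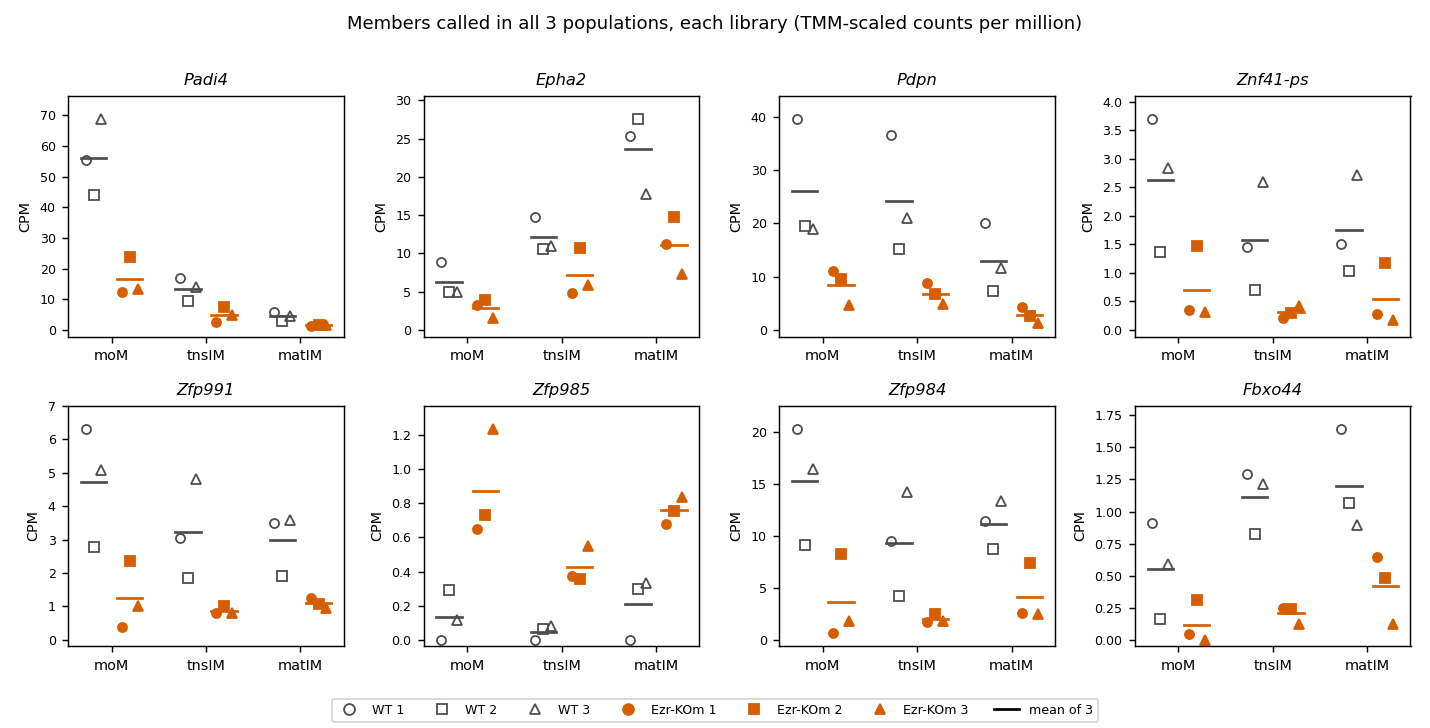
CPM (y axis, linear, 1 scale for each gene) of the 8 genes called in all 3 populations, in each library of moMs, tnsIMs and matIMs (x axis), with open grey symbols for WT, filled orange symbols for *Ezr*-KOm, the shape giving the replicate number and the bar the mean of 3. *Zfp985* was the 1 gene of the 8 that was higher in *Ezr*-KOm, and the second *Ezr*-KOm library of *Zfp984* reached 8.29 CPM in moMs.

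*Fbxo44*, which encodes a substrate receptor of a ubiquitin ligase (ENSMUSG00000029001, chr4:148237257-148244939, minus strand), was the last gene called lower everywhere. It was at 1.11 ± 0.251 CPM in WT against 0.205 ± 0.0678 in *Ezr*-KOm tnsIMs and at 1.20 ± 0.390 against 0.418 ± 0.266 in matIMs. In moMs its libraries overlapped, at 0.911, 0.166 and 0.591 against 0.0435, 0.309 and 0 CPM, and its log2 change of -2.11 ± 0.83 rested on 9 counts in the 3 *Ezr*-KOm libraries, 8 of them in the second. Without that library it was -4.35, on 1 count. The other 5 tested members of the F-box and ubiquitin list were not called. *Angptl7*, which encodes a secreted angiopoietin-like protein (chr4:148579640-148584917, minus strand), was at 0.114, 0.704 and 0.787 CPM in WT moMs against 0.913, 1.16 and 3.09, at 0.0417, 0.380 and 0.353 in tnsIMs against 0.623, 0.698 and 2.46, and at 0, 0.854 and 0.969 in matIMs against 2.29, 1.79 and 5.53. Its groups did not overlap, and without the third *Ezr*-KOm tnsIM library its log2 change there went from 2.29 to 1.43. It lies inside a larger gene on the other strand, and since the library kit does not mark strand, its counts may include reads of that gene.

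Some members separated the genotypes in all 3 populations by small amounts. *Plod1*, a lysyl hydroxylase of collagen synthesis, was 79.4 ± 2.98 CPM in WT against 61.2 ± 9.97 in moMs, 67.0 ± 7.72 against 48.5 ± 8.15 in tnsIMs and 48.3 ± 2.28 against 38.2 ± 5.59 in matIMs. *Vps13d*, a lipid transfer protein, was higher in *Ezr*-KOm, at 16.6 ± 1.28 against 21.4 ± 4.15, 15.7 ± 3.05 against 22.7 ± 4.19 and 15.3 ± 1.17 against 20.6 ± 3.71 CPM in the same order. In all, 6 members had every *Ezr*-KOm library below every WT library in each population, beside 0.304% of all genes tested, and 3 had it above, beside 0.272%. *Clstn1*, a cargo adaptor of kinesin, had log2 changes of 0.58 ± 0.29, 0.21 ± 0.28 and 0.59 ± 0.28. *Fhad1* had -0.05 ± 0.48, 0.75 ± 0.48 and 0.50 ± 0.48. *Cplane2*, a planar polarity effector at the count minimum, was called lower in tnsIMs and matIMs on at most 14 counts a library, and met the minimum in 3 WT libraries and in no *Ezr*-KOm library. *Fbxo2*, too low to be tested, also met it through WT alone, and *Masp2*, not called, through *Ezr*-KOm alone.

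The remaining groups of roles showed few or no calls, where 5.4% of all genes tested were called in some population. Nothing is read from the counts of these small lists. None of the 8 tested metabolic enzymes was called, with median log2 changes of 0.023, -0.025 and -0.15, and none of the 5 mitochondrial and peroxisomal genes, with medians of 0.045, -0.070 and -0.13. None of the 9 nuclear and chromatin factors was called, with medians of 0.054, 0.090 and -0.061, nor any of 7 genes of membrane traffic and the lysosome, with medians of 0.17, 0.12 and 0.068. The apoptosis genes *Casp9* and *Dffa* and the chaperone genes *Dnajc16* and *Hspb7* were not called. Of the 3 tested genes for circulating peptides and innate factors only *Angptl7* was. In all, 28 members (32.6%) stayed under a log2 change of 0.25 in all 3 populations, beside 43.5% of all genes.

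How often the 8 calls were kept differed between genes. Of the 26 alternative settings, 18 left out a single library each. For a call in a given population, most of those libraries came from the other populations, so its own libraries were all kept. The fractions below therefore do not measure how firm a call is, and the same contrasts picked the stretch. *Padi4* and *Pdpn* were called in all 3 populations in each of the 26 settings, and *Zfp991* in each of the 25 that gave it a value. *Zfp984* kept its call in matIMs in 22 of 26 settings. *Fbxo44* kept its call in 17 of 25 settings in matIMs and in 21 of 24 in moMs. *Znf41-ps* kept it in 22 of 25 in moMs and in matIMs, and *Zfp985* in 22 of 25 in matIMs. With the replicate number as a block, 10 members were called in all 3 populations, the same 8 with *Padi2* lower and *Angptl7* higher, beside 0.43% of all genes, and 17 were called in moMs in place of 14, beside 2.74%. The count of 8 fell to 5 without the first WT moM library, the third *Ezr*-KOm moM library, the first WT matIM library or the first *Ezr*-KOm matIM library, and to 3 without the third *Ezr*-KOm matIM library. Leaving out that last library also took the matIM count from 12 to 6.

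Within a genotype, libraries of one replicate number often kept the same rank in all 3 populations, and several members did so in the WT libraries alone, which involves no comparison of genotypes. Among WT libraries, 1 number was lowest in all 3 populations for 28 members, where 24.9% of all genes tested showed this, and highest for 20, where 24.0% did. Among *Ezr*-KOm libraries the counts were 25 beside 22.6% and 26 beside 22.2%. The following patterns were picked after their values were seen. The first WT library held 0 counts of *Zfp985* and *Zfp990* in moMs, tnsIMs and matIMs alike, while the second and the third WT libraries held some in each. Across all genes tested, 0.0569% were at 0 in those 3 libraries. The first WT library was lowest in all 3 populations for 15 members, where 10.8% of all genes were, and among them were *Angptl7*, *Fv1* and *Dffa*. The second WT library was lowest for 8 members, where 5.32% of all genes were, and these included *Padi4*, *Znf41-ps*, *Zfp991* and *Zfp984*. The second *Ezr*-KOm library was highest for 17 members, where 6.76% of all genes were, and these included *Padi2*, *Epha2*, *Fblim1*, *Zfp993*, *Zfp984* and *Gm20707*. In that library *Ezr* was at 160.0, 126 and 93.9 CPM in moMs, tnsIMs and matIMs, the lowest of each group.

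**Figure D3:**
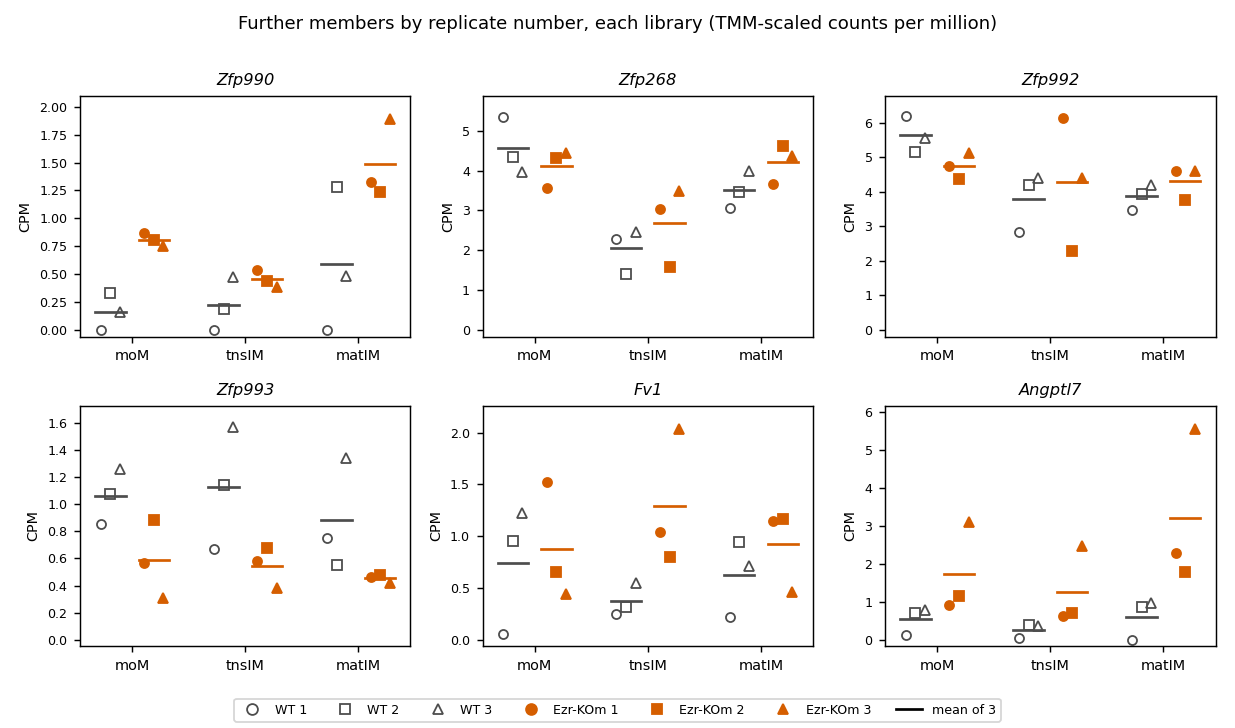
CPM (y axis, linear, 1 scale for each gene) of 6 further members in each library of moMs, tnsIMs and matIMs (x axis), with open grey symbols for WT, filled orange symbols for *Ezr*-KOm, the shape giving the replicate number and the bar the mean of 3. The first WT library (open circle) is at 0 for *Zfp990* in each population, and *Zfp268* and *Zfp992* overlap between genotypes in tnsIMs.

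Differences between the sorted populations did not enter the choice of the stretch and were tested within WT. The populations differ along the passage from recruited monocyte to resident macrophage, and in these libraries they also differed in markers of other cells. Summed dendritic cell markers were 76.6 to 117 CPM in WT moMs, 151 to 368 in WT tnsIMs and 2461 to 3486 in WT matIMs, and epithelial markers were 36.4 to 66.8, 2334 to 3958 and 272 to 362. Alveolar macrophage markers were 5276 to 6588, 1147 to 1598 and 516 to 661 CPM. Their part in the differences below was not tested. In tnsIMs against moMs 9 members rose at an adjusted p under 0.05 in edgeR, beside 13.0% of all genes, and 4 fell, beside 8.61%. In matIMs against moMs 5 rose, beside 13.4%, and 12 fell, beside 11.4%. In matIMs against tnsIMs 3 rose, beside 8.32%, and 6 fell, beside 10.2%. With the replicate number as a block, 15 members passed for matIMs against tnsIMs in place of 9, beside 23.1% of all genes.

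*Padi4* and *Padi2* had different orders across the populations. From moMs to tnsIMs *Padi4* fell by 2.06 ± 0.34 on the log2 scale (SE, edgeR adjusted p = 0.000272), and from tnsIMs to matIMs it fell by 1.59 ± 0.35 (edgeR adjusted p = 0.00288). In *Ezr*-KOm libraries the same steps were -1.72 ± 0.34 and -1.69 ± 0.38. *Padi2* fell by 1.88 ± 0.26 from moMs to tnsIMs and then rose by 1.25 ± 0.25 from tnsIMs to matIMs (edgeR adjusted p = 4.85e-05 and 0.00157), and in *Ezr*-KOm the same steps were -1.36 ± 0.26 and 1.08 ± 0.25. *Epha2* rose from moMs to matIMs by 1.92 ± 0.36 (adjusted p = 0.000505) and by 1.93 ± 0.37 in *Ezr*-KOm.

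*Mfap2* and *Kazn* peaked in the middle population. *Mfap2* rose by 1.98 ± 0.40 from moMs to tnsIMs and fell by 3.15 ± 0.43 from tnsIMs to matIMs (edgeR adjusted p = 0.00153 and 2.73e-05), and in *Ezr*-KOm the steps were 1.5 ± 0.40 and -2.76 ± 0.43. *Kazn* rose by 1.85 ± 0.36 and fell by 1.70 ± 0.35 (edgeR adjusted p = 0.00101 and 0.00174). In *Ezr*-KOm its steps of 0.76 ± 0.34 and -0.61 ± 0.33 missed the threshold. A step past the threshold in 1 genotype and not in the other is not shown to differ between genotypes. *Spsb1*, an adaptor that marks inducible nitric oxide synthase for degradation, rose from moMs to matIMs by 2.01 ± 0.24 and from tnsIMs to matIMs by 1.26 ± 0.23 (edgeR adjusted p = 4.91e-06 and 0.00066). It stood at 9.39, 7.42 and 8.50 CPM in WT moMs, 14.6, 14.5 and 13.3 in WT tnsIMs and 32.3, 36.4 and 33.0 in WT matIMs, with no overlap between populations.

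Other members that rose from moMs to tnsIMs in WT were *Srm*, the spermidine synthase, by 0.80 ± 0.21, *Tmem201*, a protein of the inner nuclear membrane, by 0.80 ± 0.21, and *Clstn1* by 1.08 ± 0.29. *Ddi2*, a protease that works with the proteasome, fell by 0.87 ± 0.22, and *Zfp268* fell by 1.13 ± 0.30. From moMs to matIMs *Cenps*, a kinetochore protein, rose by 1.65 ± 0.45, the zinc finger gene *Casz1* by 0.84 ± 0.23 and *Tmem201* by 0.64 ± 0.21. Over the same step the non-coding *4930455G09Rik* fell by 1.66 ± 0.27, *Plod1* by 0.72 ± 0.15, *Atp13a2*, a lysosomal polyamine transporter, by 0.86 ± 0.20 and *Agtrap*, a partner of the angiotensin receptor, by 0.57 ± 0.14. From tnsIMs to matIMs *Dffa*, the inhibitor of the apoptotic nuclease, rose by 0.51 ± 0.16, while *Agtrap* fell by 0.64 ± 0.14 and *4930455G09Rik* by 1.16 ± 0.27. All of these passed an adjusted p of 0.05 in edgeR, and *Srm*, *Tmem201*, *Clstn1*, *Zfp268*, *Casz1* and *Dffa* missed it without some single libraries. *Tmem201* missed it in matIMs against moMs without any 1 of the 6 WT libraries compared, and *Dffa* in 10 of 27 settings, among them no filter on low counts and WT libraries alone. The WT calls were met in *Ezr*-KOm with the same sign by 6 members for tnsIMs against moMs, by 12 for matIMs against moMs and by 7 for matIMs against tnsIMs, beside 12.6%, 18.8% and 14.6% of all genes.

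**Figure D4:**
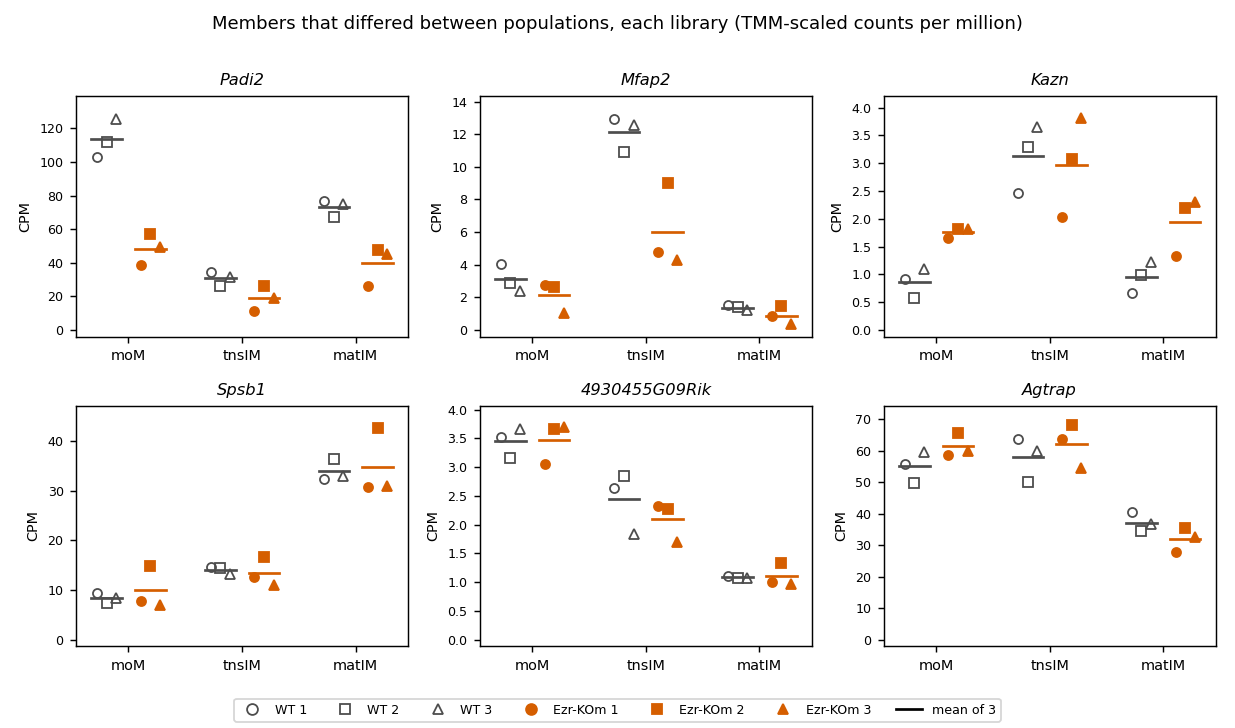
CPM (y axis, linear, 1 scale for each gene) of 6 members that differed between sorted populations in WT, in each library of moMs, tnsIMs and matIMs (x axis), with open grey symbols for WT, filled orange symbols for *Ezr*-KOm, the shape giving the replicate number and the bar the mean of 3. *Mfap2* and *Kazn* are highest in tnsIMs, *Padi2* is lowest there in WT, and *Spsb1* is highest in matIMs at 32.3 to 36.4 CPM in WT.

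The neighbouring stretches of chromosome 4 held fewer calls shared by all populations, as the choice of this one implies. Among 146 tested genes from 130 to 140 Mb, 4 (2.74%) were called lower and none higher in all 3 populations. Among 88 from 150 Mb to the end 1 (1.14%) was called lower and 1 (1.14%) higher. Over all genes tested the shares were 0.183% lower and 0.202% higher. Chromosome 17 from 20 to 30 Mb, which is not a neighbour, had 6 of 204 called lower and 7 higher. Its shares were 2.94% and 3.43%, against 8.14% and 1.16% of the members here. No test was made of these counts. At the edges, *Rcc2* was the first member, at 140427852, with log2 changes of -0.029, -0.23 and 0.018, and *Aldh4a1*, just outside, had -0.039, -0.0085 and 0.0060. *Spsb1* was the last member, at 149980740, with 0.24, -0.066 and 0.039, and *H6pd*, the next gene outside, had -0.089, 0.0063 and 0.063. After it *Gm37795* had -0.12, -0.80 and 0.75, and *Gpr157* had 1.78, 1.82 and 0.66. *Spata21*, *Cplane2* and *Fbxo2* just met the count minimum with 136, 74 and 59 counts over all libraries, and *Ctrc*, *Zfp979* and *Zfp981* just missed it with 45, 83 and 63.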

How the data were processed

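The authors aligned the reads with STAR 2.7.9a to GRCm39 with the Gencode M29 annotation, counted them per gene in the same STAR run and deposited raw counts, the number of reads on each gene, as whole numbers. Libraries were made with a low-input cDNA kit that does not mark strand, and which strand column of the counts was deposited is not given in the sources used here. All 18 columns were matched to samples by name, and 0 were left unused. Genes were kept by filterByExpr (smallest count 10), which left 15811 of 21254, and edgeR 4.0.16 in R 4.3.3 fitted 1 quasi-likelihood model of population and genotype (6 groups) over the 18 libraries after TMM scaling. P-values between populations are Benjamini-Hochberg adjusted over all genes tested, while calls between genotypes use the unadjusted p. Groups came from the labels, which do not name the animals, so p-values measure the spread between these libraries. The populations of a genotype share mice, and the main model treats their libraries as independent. No pair of replicates was identical, and each pair differed by more than sampling noise. Deviations from group means correlated at 0.102 to 0.316 between WT and *Ezr*-KOm libraries of one number. Where the numbers differed, they correlated at 0.0508 or less. Between WT populations of one number they were 0.169 to 0.247 for tnsIMs with moMs and 0.172 to 0.397 for matIMs with tnsIMs. For matIMs with moMs 1 such pair was at 0.0947. Between populations of a genotype, libraries of different numbers correlated at 0.0316 or less. The main model holds no term for the number. Its standard errors and p-values therefore leave out any pairing of genotypes or populations, which only the replicate blocks take in. The members, the lists of roles and the rules were chosen with earlier results of these data known.

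The genes named are those called in all 3 populations, further members with a mean of at least 1 CPM by mean absolute log2 change until 20 were named, the 5 members with the smallest p in each direction in each comparison of WT populations, the members at the edges, and examples from the lists. Transcript identity came from BLAST 2.17.0 against Gencode M39 transcripts (identity at least 85%, E value at most 1e-20), for 42 of 43 genes searched. Upstream stretches were read from the GRCm39 genome. Genes left out by name, and some named by the rule, are not reported here. The alternatives were DESeq2 1.42.0, 2 other normalizations, 2 other filters on low counts, robust empirical Bayes, smaller fits, replicate blocks and each library left out. The edgeR and DESeq2 fits alone were tested on simulated counts, at an adjusted p, in 1 comparison and with no effect of replicate number.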

Additional observations from a re-analysis of the deposited data

How the results depend on the processing

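The counts of members called between *Ezr*-KOm and WT kept within 1.5 times of the values given under DESeq2, other normalizations, no filter, robust empirical Bayes and the replicate block, which gave 17, 16 and 12 for moMs, tnsIMs and matIMs and 10 for all 3. With at least 10 counts in every library, a filter that tests fewer genes, they were 8, 6, 6 and 4. Leaving out 1 library gave 6 to 15 in matIMs and 3 to 9 in all 3 populations. In WT the replicate block gave 15 members for matIMs against tnsIMs and 24 for matIMs against moMs, and the replicate block within genotype gave 17 and 26. The block moved no other count by over 1.5 times. With at least 10 counts in 6 libraries 85 genes would be members, and 122 with no minimum. No called value of a named member changed sign. The log2 changes of *Zfp984* and *Znf41-ps* in moMs and matIMs and of *Fbxo44* in moMs moved on leaving out the second *Ezr*-KOm library. Genes at about 1 CPM or less, among them *Zfp985*, *Zfp990*, *Zfp993*, *Fbxo44* and *Cplane2*, rest on few counts, and counts of near-identical copies are uncertain.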
